A study of Mus musculus with 8 samples.

Results

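The genes described are 35 subunits of the Polycomb complexes and of enzymes that reverse their histone marks, out of 24318 gene symbols in the tables. They were chosen by name, and each matched 1 entry in all 8 libraries. By role they comprise 6 core genes and 5 accessory genes of Polycomb repressive complex 2 (PRC2), 10 genes of canonical PRC1, 4 of variant PRC1.1, 4 of variant PRC1.6 and 6 opposing enzymes. PRC2 places methyl groups on lysine 27 of histone H3, and PRC1 places ubiquitin on histone H2A. In canonical PRC1 a CBX protein reads the methyl mark and a PHC protein compacts chromatin, while the variant complexes are recruited by other subunits, such as DNA-binding proteins. Stem cells use these complexes to hold developmental genes silent, and the choice among paralogous subunits is known to shift as the cells differentiate.

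The series concerns WDR68, a WD40-repeat protein of the PRC1-AUTS2 complex, whose gene the tables list as Dcaf7. Poly(A) RNA was sequenced from E14 mouse embryonic stem cells (ESC) and, after differentiation, from neural progenitor cells (NPC), each in cells labelled as Wdr68 knockout (KO) and in wild-type (WT) cells. The groups were KO NPC, WT NPC, KO ESC and WT ESC, with 2 libraries each. ESC were kept with 15% serum, LIF and inhibitors of Mek and GSK3, on feeder cells or gelatin. NPC were grown as hanging drops of 500 cells for 2 days and in suspension for 2 days. They had retinoic acid, labelled as 5 mM, for 4 days. Their medium is listed with 15% serum and without LIF or the inhibitors. The labels do not say how the knockout was made, whether it is 1 clone, or whether the libraries of a group came from separate cultures. The p-values therefore rest on the spread of these libraries, which could be technical alone.

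Levels are FPKM, in which fragment numbers are divided by transcript length in kilobases and by the library's total. Depth, read back from the listed error bounds, was 5996677 to 7942644 fragments. Dcaf7 had 8.36 and 8.99 FPKM in KO NPC and 27.2 and 29.6 in WT NPC, and 2.8 and 2.26 in KO ESC and 12.4 and 14.2 in WT ESC. The transcript was lower in the knockout at both stages, with log2 changes of -1.60 ± 0.12 (SE, adjusted p = 1.3e-04) in NPC and -2.02 ± 0.12 (adjusted p = 0.00109) in ESC. Of 10 neural progenitor markers, 10 had FPKM of at least 1 in both WT NPC libraries and 6 in both KO NPC libraries. Their summed FPKM was 46.9 to 50.3 in KO NPC, 286 to 293 in WT NPC, 86.9 to 88.0 in KO ESC and 93.4 to 105.7 in WT ESC, so by level the KO NPC libraries go in part against their label. Sox2, also a pluripotency marker, is in this list, and 6 of the 10 markers were higher and 2 lower in KO NPC than in KO ESC. The 8 pluripotency markers summed to 11.8 to 14.2 FPKM in KO NPC, 37.1 to 45.0 in WT NPC, 3930 to 4216 in KO ESC and 3655 to 3745 in WT ESC.

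Of the 35 genes, 34 reached an FPKM of 1 in 2 or more libraries and were tested. Phf19, a PRC2 accessory protein that binds methylated histone H3, lay between 0.0908 and 0.909 FPKM in the 8 libraries and was not tested. The highest mean level was Rbbp7 in KO NPC (135.5 FPKM), KO ESC (115.8) and WT ESC (132.7), and Ezh2 in WT NPC (97.2). The lowest was Phf19 in both NPC groups and Cbx8 in both ESC groups. The median of the 35 levels was 17.4 FPKM in KO NPC, 17.2 in WT NPC, 15.1 in KO ESC and 14.3 in WT ESC.

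**Figure D1:**
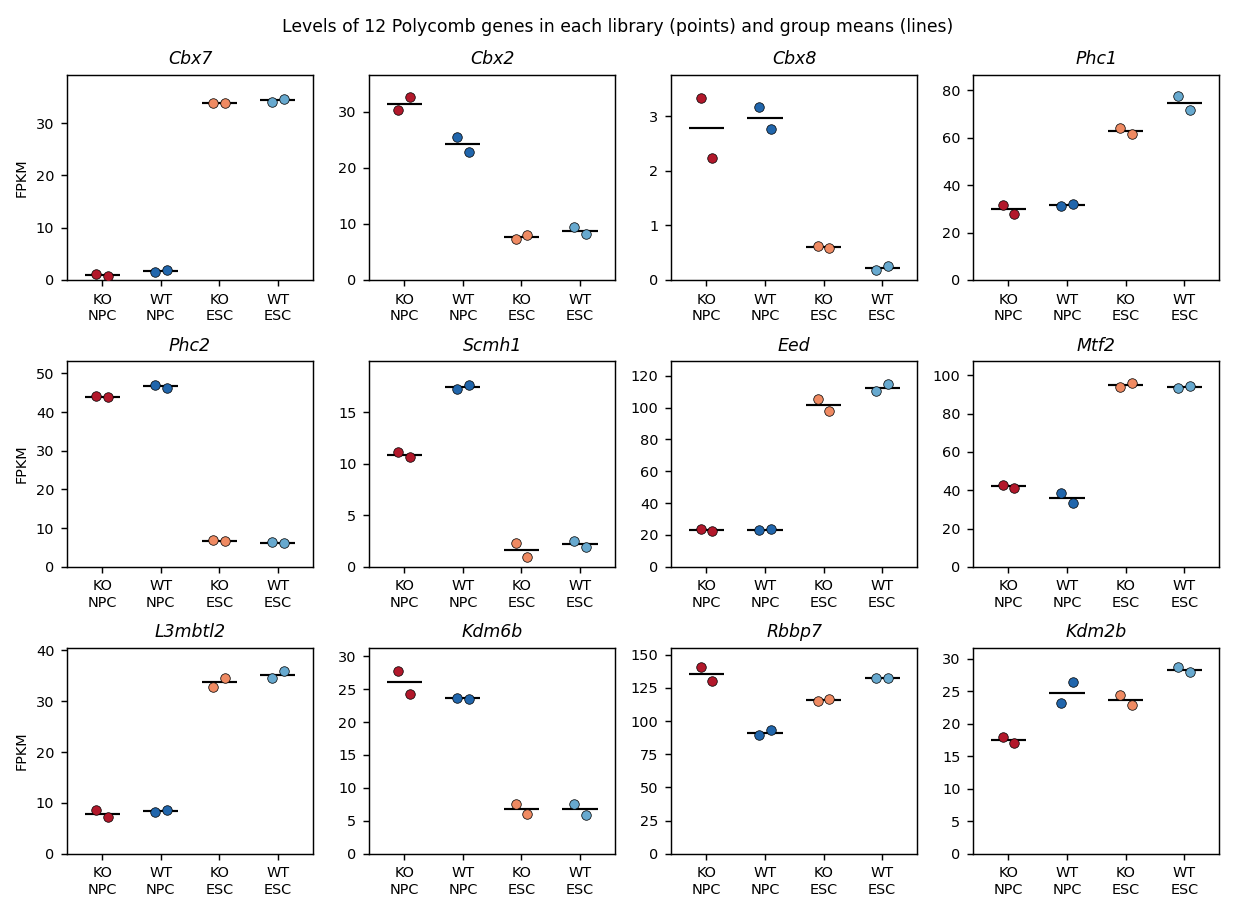
Levels of selected Polycomb genes in each library. Points give the FPKM of each library and lines the group means, with groups ordered KO NPC, WT NPC, KO ESC, WT ESC. Panels show Cbx7, Cbx2, Cbx8, Phc1, Phc2, Scmh1, Eed, Mtf2, L3mbtl2, Kdm6b, Rbbp7 and Kdm2b. The NPC and ESC points lie apart in every panel except those of Rbbp7 and Kdm2b.

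NPC differed from ESC in which paralog of several subunit families they expressed, in the knockout as in the wild type. Cbx7, Eed, L3mbtl2, Mtf2 and Phc1 were lower in NPC, and Phc2, Scmh1, Cbx2, Kdm6b, Bcor and Bmi1 were higher. In KO NPC against KO ESC, 22 of the 34 tested genes changed, 12 higher and 10 lower (64.7%), where 70.3% of all 13318 tested genes did (41.6% higher and 28.8% lower). In WT NPC against WT ESC, 26 changed, 12 higher and 14 lower (76.5%), where 72.6% of all genes did (41.6% higher and 31.1% lower). The share of Polycomb genes that changed was thus close to that of all genes. The 12 higher in each genotype include Cbx8, which entered the test only through NPC libraries, where it was high. The libraries of the stages did not overlap for 14 higher and 14 lower of the 34 genes in KO cells, and 12 and 19 in WT cells. Over all tested genes this held for 6675 higher and 4725 lower in KO cells (85.6%) and 6480 and 4999 in WT cells (86.2%). Such separation is therefore common. Their median log2 change was 0.03 in KO cells and -0.18 in WT cells, against 0.17 and 0.15 over all tested genes. Changes are log2 differences of FPKM + 1 with their standard errors, tested with limma and adjusted by Benjamini-Hochberg over all 13318 genes, with a threshold of 0.05. In bulk RNA such as this, fewer cells of a type and less RNA per cell cannot be told apart. Markers of proliferating cells summed to 1504 to 1523 FPKM in KO NPC, 1211 to 1217 in WT NPC, 1999 to 2049 in KO ESC and 2077 to 2109 in WT ESC. Of these 16 markers, 10 fell and 3 rose between KO stages and 13 fell and 1 rose between WT stages. Neuronal markers gave 2 higher and 3 lower of 10 in KO NPC against KO ESC and 9 higher and 1 lower in WT NPC against WT ESC. Of 8 blood and endothelial markers tested, 7 were higher and 1 lower in KO cells, and 5 higher and 2 lower in WT cells. Mesoderm and heart muscle markers gave 6 higher and 1 lower of 7 in each genotype. All 5 endoderm markers tested were higher in each. Of 7 genes listed as feeder fibroblast markers, 5 were higher and 1 lower in KO cells, and 7 were higher in WT cells. They summed to 0.881 to 0.946 FPKM in KO ESC and 1.176 to 1.435 in WT ESC. ESC is the stage kept on feeder cells or gelatin, so these levels go against the name of the list. Markers such as these can enter the test through NPC libraries alone. The part of these markers in the Polycomb changes was not tested.

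Among the CBX genes, whose products read methylated lysine 27, Cbx7 gave way to Cbx2. Cbx7 had 1.09 and 0.689 FPKM in KO NPC, 1.61 and 1.88 in WT NPC, 33.9 and 33.9 in KO ESC and 34.0 and 34.7 in WT ESC. Every NPC library lay far below every ESC library. The log2 change was -4.22 ± 0.12 in KO cells (adjusted p = 3.8e-07) and -3.69 ± 0.12 in WT cells (adjusted p = 6.1e-07), the largest falls among the 34 genes. Mean FPKM was 38.1 times higher in KO ESC than in KO NPC and 19.7 times higher in WT ESC than in WT NPC. Cbx2, the CBX protein known for compacting chromatin, had 30.3 and 32.7 FPKM in KO NPC, 25.5 and 22.9 in WT NPC, 7.39 and 7.95 in KO ESC and 9.39 and 8.19 in WT ESC. The NPC and ESC libraries did not overlap, and Cbx2 rose by 1.91 ± 0.10 on the log2 scale in KO cells (adjusted p = 4.0e-06) and by 1.36 ± 0.10 in WT cells.

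Cbx8 had 3.33 and 2.24 FPKM in KO NPC, 3.18 and 2.77 in WT NPC, 0.626 and 0.585 in KO ESC and 0.18 and 0.254 in WT ESC. It was higher in all NPC libraries, with log2 changes of 1.22 ± 0.16 in KO cells and 1.71 ± 0.16 in WT cells (adjusted p = 5.7e-05). Its ESC values rest on about 2 to 8 fragments per library, and it entered the test only through its NPC libraries. Under quantile normalization its rise in KO cells was 0.73. Cbx6 lay between 8.71 and 10.7 FPKM in all 8 libraries and did not pass in either comparison. As a share of the summed FPKM of Cbx2, Cbx6, Cbx7 and Cbx8, Cbx7 made up 2.41% and 1.53% in KO NPC, 4.03% and 4.9% in WT NPC, 65.0% and 64.0% in KO ESC and 62.9% and 66.9% in WT ESC. Cbx2 made up 67.1% and 72.5% in KO NPC, 63.7% and 59.8% in WT NPC, 14.2% and 15.0% in KO ESC and 17.4% and 15.8% in WT ESC. The sum of these 4 genes lay between 45.16 and 45.2 FPKM in KO NPC, 38.26 and 40.07 in WT NPC, 52.11 and 52.92 in KO ESC and 51.8 and 54.06 in WT ESC.

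These CBX genes lie in pairs. In mm9, Cbx2 (chr11:118884343-118892584) lies 7165 bases from Cbx8 (chr11:118899750-118902227), and both were higher in NPC. Cbx6 (chr15:79654328-79664763) lies 81473 bases from Cbx7 (chr15:79746237-79763076), and of these only Cbx7 passed. The promoters of Cbx7, which fell most, and of Cbx8, which rose in the same family, are shown as RefSeq gives them on GRCm38.p6, from 250 bases before to 50 bases after the start, 5′ to 3′ along the gene. Cbx7 is at chr15:79932597-79932896 and Cbx8 at chr11:119040864-119041163, both on the minus strand. Capitals mark matches to CACGTG, the E-box of MYC, MAX and MGA, and to TCCCGC or its reverse complement GCGGGA, an E2F core.
Cbx7: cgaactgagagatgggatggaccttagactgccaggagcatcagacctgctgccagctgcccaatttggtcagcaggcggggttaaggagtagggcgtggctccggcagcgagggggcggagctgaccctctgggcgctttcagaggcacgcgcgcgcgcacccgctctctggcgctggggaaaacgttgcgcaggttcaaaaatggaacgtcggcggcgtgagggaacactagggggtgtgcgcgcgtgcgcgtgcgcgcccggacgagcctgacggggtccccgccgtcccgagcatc
Cbx8: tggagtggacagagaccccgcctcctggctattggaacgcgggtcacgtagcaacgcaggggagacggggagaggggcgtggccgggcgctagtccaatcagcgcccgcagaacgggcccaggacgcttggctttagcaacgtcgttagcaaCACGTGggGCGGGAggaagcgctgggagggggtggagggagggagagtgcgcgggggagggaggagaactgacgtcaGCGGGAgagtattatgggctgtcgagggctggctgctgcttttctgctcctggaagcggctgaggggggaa
In Cbx8 the E-box begins 98 bases before the start and the E2F cores 90 and 21 bases before it, and Cbx7 has no match to either motif in this window. Promoters were listed for 32 of the 35 genes, 43 in all, and none was listed for Cbx2, Kdm6b and Pcgf1. The E-box was in 12 of the 43 (27.9%), against 7.15% of all 32851 RefSeq promoters and 10.7% of those between the quartiles of GC content of the 43. The E2F core was in 16 (37.2%), against 20.0% of all and 37.5% in that GC range. CGGAAG, an ETS site, or its reverse complement CTTCCG was in 8 (18.6%), against 16.9% and 31.1%. The 43 were counted at any GC content, so they and the promoters in that GC range are not like sets. These matches describe letters only.

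The PHC family, whose SAM domains link PRC1 complexes together, showed a rise of Phc2 and a fall of Phc1. Phc2 had 44.1 and 43.8 FPKM in KO NPC, 47.1 and 46.1 in WT NPC, 6.82 and 6.72 in KO ESC and 6.46 and 6.09 in WT ESC. The NPC libraries were all far above the ESC libraries, with log2 changes of 2.53 ± 0.07 in KO cells (adjusted p = 3.3e-07) and 2.71 ± 0.07 in WT cells (adjusted p = 2.5e-07). Phc1 had 31.7 and 27.9 FPKM in KO NPC, 31.2 and 32.2 in WT NPC, 64.2 and 61.4 in KO ESC and 77.7 and 71.8 in WT ESC. It was lower in every NPC library, with log2 changes of -1.05 ± 0.08 in KO cells and -1.21 ± 0.08 in WT cells. Phc1 thus supplied 40.0% and 37.0% of PHC FPKM in KO NPC, 37.6% and 39.0% in WT NPC, 87.6% and 87.8% in KO ESC and 90.0% and 89.6% in WT ESC. Phc3 was the least abundant, at 1.79 to 4.66 FPKM, and rose by 0.59 ± 0.12 on the log2 scale in KO cells and 0.77 ± 0.12 in WT cells. Under quantile normalization neither Phc3 change passed, at 0.11 (adjusted p = 0.433) in KO cells and 0.30 (adjusted p = 0.0507) in WT cells.

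Scmh1, a PRC1-associated homolog of Drosophila Scm, had 11.1 and 10.6 FPKM in KO NPC, 17.2 and 17.6 in WT NPC, 2.29 and 0.955 in KO ESC and 2.46 and 1.95 in WT ESC. All NPC libraries lay above all ESC libraries, with log2 changes of 2.22 ± 0.23 in KO cells (adjusted p = 1.1e-04) and 2.53 ± 0.23 in WT cells (adjusted p = 4.9e-05). Bmi1 (Pcgf4), a RING-finger partner that defines PRC1.4, had 17.2 and 17.9 FPKM in KO NPC, 16.6 and 17.9 in WT NPC, 5.95 and 7.85 in KO ESC and 6.64 and 4.51 in WT ESC. It rose by 1.24 ± 0.18 on the log2 scale in KO cells (adjusted p = 5.7e-04) and by 1.49 ± 0.18 in WT cells (adjusted p = 2.0e-04). Its paralog Pcgf2, which defines PRC1.2, stayed between 29.5 and 39.1 FPKM in the 8 libraries and did not pass in either comparison. Of the 10 canonical PRC1 genes, 6 were higher and 2 lower in NPC in each genotype, and Cbx6 and Pcgf2 did not pass. The 6 include Cbx8, which entered the test only through its NPC libraries. Over all genes 41.6% were higher in each genotype, and 28.8% in KO and 31.1% in WT cells were lower.

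**Figure D2:**
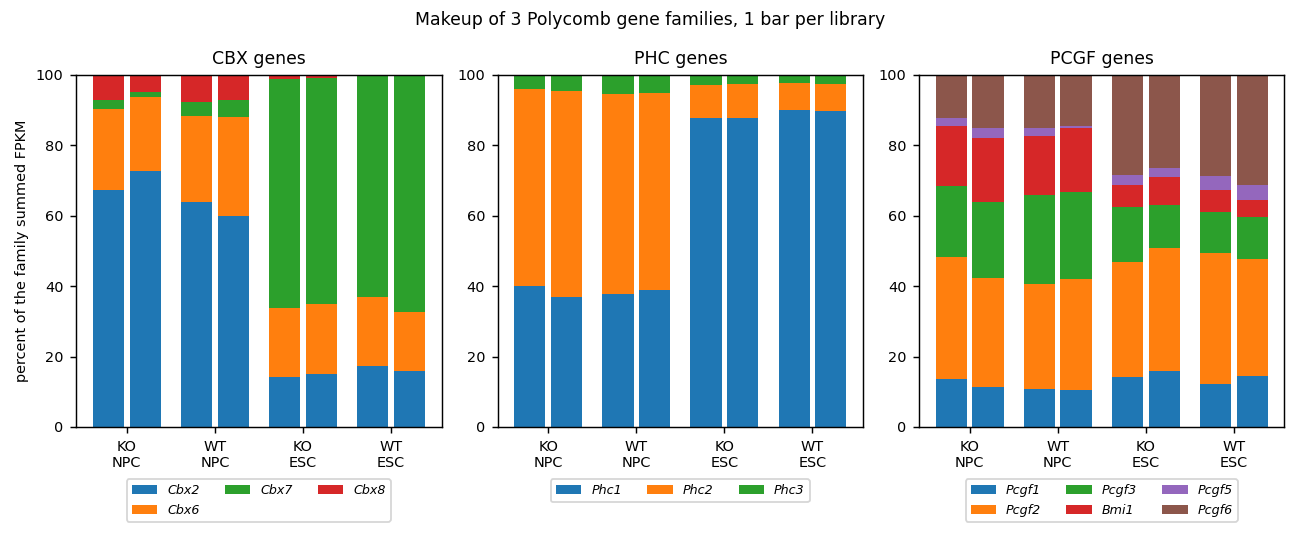
Share of each paralog in the summed FPKM of its family, as a percent, in each library. Panels show 4 genes of the CBX family and the PHC and PCGF families, bars start at 0 and stack to 100%, and libraries are ordered KO NPC, WT NPC, KO ESC, WT ESC. Cbx7 takes 1.53% to 4.9% of the sum of the 4 CBX genes in NPC and 62.9% to 66.9% in ESC.

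Among PRC2 genes the subunit that differed most between stages was Eed, which binds trimethylated lysine 27 and stimulates the enzyme. Eed had 23.7 and 22.7 FPKM in KO NPC, 23.1 and 23.7 in WT NPC, 105.6 and 98.0 in KO ESC and 110.1 and 114.8 in WT ESC. Its NPC libraries were all below its ESC libraries, with log2 changes of -2.08 ± 0.07 in KO cells (adjusted p = 5.1e-07) and -2.22 ± 0.07 in WT cells (adjusted p = 4.1e-07). Ezh2, the main methyltransferase, instead rose by 0.20 ± 0.06 on the log2 scale in each genotype, a call that 4 of 17 alternative settings ended in each, among them leaving out KO NPC replicate 2 or KO ESC replicate 2 in KO cells and WT NPC replicate 1 or WT ESC replicate 2 in WT cells. Under quantile normalization the rise was 0.45 in KO and 0.54 in WT cells. Its levels were 81.2 and 85.1 FPKM in KO NPC, 98.8 and 95.5 in WT NPC, 73.7 and 70.6 in KO ESC and 87.1 and 81.7 in WT ESC. The ratio of Eed to Ezh2 FPKM was 0.292 and 0.267 in KO NPC, 0.234 and 0.249 in WT NPC, 1.43 and 1.39 in KO ESC and 1.26 and 1.41 in WT ESC.

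The promoters of Eed and of Rbbp7, the PRC2 gene that changed most with the knockout, are shown in the same window and build. Eed is at chr7:89980927-89981226 on the minus strand and Rbbp7 at chrX:162760122-162760421 on the plus strand, with GC contents of 54.7% and 75.7%. Neither holds any of the motifs, so no letter is in capitals.
Eed: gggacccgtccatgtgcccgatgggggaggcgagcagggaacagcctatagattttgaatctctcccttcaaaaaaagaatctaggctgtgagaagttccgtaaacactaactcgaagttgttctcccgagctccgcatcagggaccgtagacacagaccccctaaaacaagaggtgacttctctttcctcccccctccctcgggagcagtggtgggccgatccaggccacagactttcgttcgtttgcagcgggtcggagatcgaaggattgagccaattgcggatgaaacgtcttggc
Rbbp7: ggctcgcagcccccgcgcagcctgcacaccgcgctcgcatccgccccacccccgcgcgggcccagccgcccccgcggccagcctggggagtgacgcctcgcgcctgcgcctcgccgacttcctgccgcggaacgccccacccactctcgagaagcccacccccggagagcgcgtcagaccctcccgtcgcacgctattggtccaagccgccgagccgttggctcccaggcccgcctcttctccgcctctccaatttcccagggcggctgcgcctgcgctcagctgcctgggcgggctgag

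Suz12, the scaffold of PRC2, had 42.6 and 41.4 FPKM in KO NPC, 32.8 and 28.7 in WT NPC, 56.6 and 48.5 in KO ESC and 54.5 and 54.6 in WT ESC. It was lower in NPC, with log2 changes of -0.31 ± 0.10 in KO cells (adjusted p = 0.0211) and -0.81 ± 0.10 in WT cells. The KO call was lost under quantile normalization and without KO NPC replicate 1, KO NPC replicate 2 or KO ESC replicate 1, with an adjusted p up to 0.145. Ezh1, the other methyltransferase, lay between 3.53 and 5.51 FPKM and gave at most 7.02% of EZH FPKM in any library. Ezh1 fell by 0.44 ± 0.12 on the log2 scale in WT cells, and its change in KO cells was 0.09 ± 0.12, which did not pass. The WT call was lost without WT NPC replicate 1 or WT ESC replicate 2 (adjusted p up to 0.0622), and under quantile normalization the WT change was -0.88. Rbbp4, a histone chaperone shared with other complexes, lay between 83.8 and 99.9 FPKM and fell in WT cells by 0.21 ± 0.06. Under quantile normalization, which moves the median change of all genes between the stages to 0.00 in KO cells and -0.01 in WT cells, the Rbbp4 change is 0.12 and does not pass. The Rbbp4 call was also lost without WT NPC replicate 2 or WT ESC replicate 1. All 6 core genes changed in WT cells, 1 higher and 5 lower, and 4 changed in KO cells, 2 higher and 2 lower. Over all genes 72.6% changed in WT cells and 70.3% in KO cells, and 6 genes are few beside these shares.

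Of the accessory genes, Mtf2, a Polycomb-like protein that brings PRC2 to CpG islands, fell most. Mtf2 had 42.9 and 41.3 FPKM in KO NPC, 38.7 and 33.3 in WT NPC, 94.1 and 96.2 in KO ESC and 93.6 and 94.7 in WT ESC. The stages did not overlap, and the log2 change was -1.16 ± 0.08 in KO cells and -1.37 ± 0.08 in WT cells (adjusted p = 5.7e-06). Jarid2, a JmjC-domain protein that recruits PRC2, had means of 20.8 FPKM in KO NPC, 24.1 in WT NPC, 31.4 in KO ESC and 34.0 in WT ESC, and fell by 0.57 ± 0.10 and 0.48 ± 0.10 on the log2 scale in KO and WT cells. The zinc finger protein gene Aebp2 (15.9 to 20.4 FPKM) and the Polycomb-like gene Phf1 (4.07 to 7.21 FPKM) did not pass in either comparison.

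The variant complexes hold 4 genes each here. Counts this small cannot be told apart from the shares of all genes that changed, 70.3% in KO and 72.6% in WT cells. In PRC1.6, which binds DNA through E2F6 and through MGA with MAX, 3 of 4 genes were lower in NPC and E2f6 was higher, in each genotype. L3mbtl2, an MBT-domain protein, had 8.54 and 7.22 FPKM in KO NPC, 8.18 and 8.56 in WT NPC, 32.8 and 34.6 in KO ESC and 34.5 and 36.0 in WT ESC. All NPC libraries were below all ESC libraries, with log2 changes of -1.97 ± 0.09 in KO cells (adjusted p = 2.6e-06) and -1.95 ± 0.09 in WT cells (adjusted p = 2.4e-06). Pcgf6, its RING-finger partner, changed on the log2 scale by -0.91 ± 0.10 in KO cells and -0.99 ± 0.10 in WT cells, and Mga by -0.75 ± 0.13 and -1.13 ± 0.13. E2f6 had 23.3 and 19.1 FPKM in KO NPC, 15.3 and 16.2 in WT NPC, 6.39 and 7.19 in KO ESC and 7.63 and 6.64 in WT ESC. Its NPC libraries were all above its ESC libraries, with log2 changes of 1.51 ± 0.12 in KO cells (adjusted p = 3.2e-05) and 1.04 ± 0.12 in WT cells.

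In PRC1.1, which reaches unmethylated CpG islands through KDM2B, the corepressor gene Bcor rose most. Bcor had 12.1 and 13.2 FPKM in KO NPC, 8.89 and 9.18 in WT NPC, 3.3 and 2.6 in KO ESC and 3.26 and 2.51 in WT ESC. Both NPC groups lay above both ESC groups, with log2 changes of 1.79 ± 0.14 in KO cells (adjusted p = 2.6e-05) and 1.38 ± 0.14 in WT cells (adjusted p = 9.0e-05). Its paralog Bcorl1 also rose, by 1.13 ± 0.15 on the log2 scale in KO cells and 0.89 ± 0.15 in WT cells, at 1.03 to 4.5 FPKM. Under quantile normalization these rises were 0.65 and 0.41. Pcgf1, the RING-finger subunit of the complex, lay between 10.3 and 15.5 FPKM and did not pass. Kdm2b fell in KO cells by 0.42 ± 0.08 (adjusted p = 0.00331), and its change in WT cells was -0.19 ± 0.08, which did not pass.

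Among enzymes that reverse Polycomb marks, Kdm6b, a demethylase of lysine 27, was the one with a large change. Kdm6b had 27.8 and 24.3 FPKM in KO NPC, 23.7 and 23.5 in WT NPC, 7.59 and 6.06 in KO ESC and 7.56 and 5.91 in WT ESC. The NPC libraries were all above the ESC libraries, with log2 changes of 1.79 ± 0.14 in KO cells (adjusted p = 2.7e-05) and 1.68 ± 0.14 in WT cells (adjusted p = 3.4e-05). Its paralog Kdm6a lay between 8.32 and 10.6 FPKM, so Kdm6b supplied 69.6% to 75.3% of their summed FPKM in NPC and 37.0% to 44.0% in ESC. Of the genes for removal of ubiquitin from H2A, Bap1, the catalytic subunit, rose in WT cells by 0.24 ± 0.08, and Asxl2, its cofactor, and Usp16, another deubiquitinase, fell in WT cells by 0.58 ± 0.13 and 0.42 ± 0.09. None of these 3 passed in KO cells, and the cofactor gene Asxl1 (16.9 to 22.3 FPKM) passed in neither. The Bap1 call was lost in 4 of 17 settings, which were no variance trend and leaving out WT NPC replicate 1, WT NPC replicate 2 or WT ESC replicate 2 (adjusted p up to 0.141).

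The differentiation comparisons of KO and WT cells share no library. The fit estimates 1 spread per gene from all 8 libraries, however, so the calls of the comparisons are not independent. Of the genes higher in NPC, 11 were called in both, which is 91.7% of the 12 in KO cells and 91.7% of the 12 in WT cells, against 83.3% of each list over all genes. The 11 include Cbx8, which entered the test only through its NPC libraries. Of those lower in NPC, 9 were called in both, which is 90.0% of the 10 in KO cells and 64.3% of the 14 in WT cells, against 85.3% and 78.9% over all genes. Rbbp7 was the single gene of the 34 called in both with opposite sign, as were 156 of the 8033 genes called in both overall (1.94%). It rose by 0.22 ± 0.06 on the log2 scale in KO cells (adjusted p = 0.0146) and fell by 0.53 ± 0.06 on the log2 scale in WT cells (adjusted p = 1.8e-04). The rise in KO cells did not pass under median-ratio scaling or without replicate 1 of KO NPC or of KO ESC, where the adjusted p reached 0.0876. Under quantile normalization both calls held, with a rise of 0.59 in KO cells and a smaller fall, -0.17, in WT cells (adjusted p = 0.0350).

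**Figure D3:**
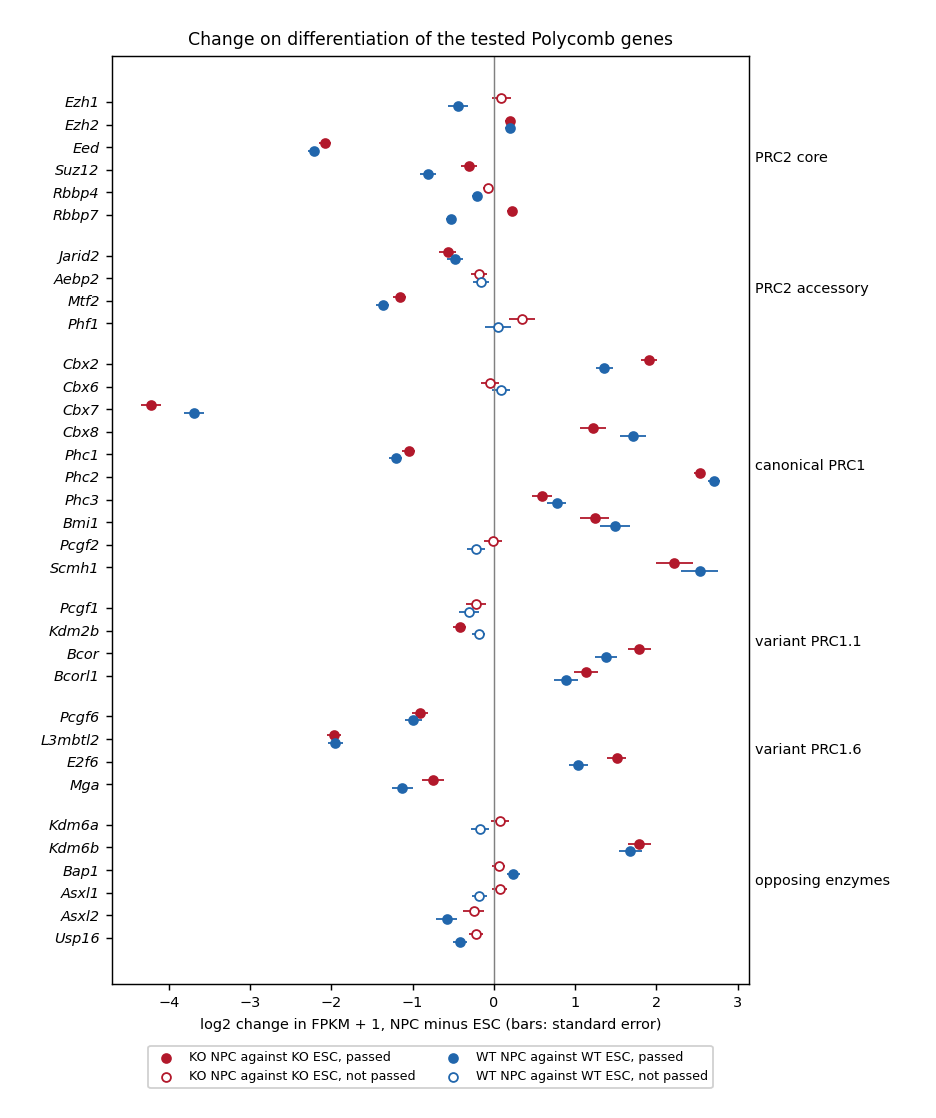
Change from ESC to NPC of the 34 tested Polycomb genes. Points give the log2 change in FPKM + 1 of NPC minus ESC and bars its standard error, for KO and WT cells, with filled points for adjusted p under 0.05. Cbx7 lies lowest, at -4.22 in KO and -3.69 in WT cells, and Phc2 highest, at 2.53 and 2.71.

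The knockout in NPC went with higher Rbbp7, Suz12, Ezh1, Cbx2 and E2f6 and with lower Kdm2b, Cbx7 and Ezh2, all by less than 2-fold in mean FPKM. These 8 of 34 genes (23.5%), 5 higher and 3 lower, compare with 27.4% of all tested genes (14.7% higher and 12.7% lower), so the Polycomb genes were called no more often than genes at large. Median-ratio scaling gives 2 higher and 3 lower. The median log2 change was 0.02 over the 34 genes and 0.05 over all. Both KO NPC libraries lay above both WT NPC libraries for 13 of the 34 genes and below them for 8. Over all tested genes 4881 lay above and 3595 below in this way (63.6%), so such separation alone says little. PRC2 core genes gave 3 higher and 1 lower of 6, canonical PRC1 genes 1 and 1 of 10, PRC1.1 genes 0 and 1 of 4 and PRC1.6 genes 1 and 0 of 4. None of the 4 tested accessory genes and none of the 6 opposing enzymes passed.

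Rbbp7, a WD40 histone chaperone of PRC2 and other complexes, had 140.8 and 130.2 FPKM in KO NPC and 89.2 and 93.5 in WT NPC. Both KO libraries were above both WT libraries, and the log2 change was 0.56 ± 0.06 (adjusted p = 8.1e-04), or 1.48 times in mean FPKM. Fragments inferred from the error bounds were 1377 and 1370 in KO NPC and 1150 and 996 in WT NPC. The depths were 7409975 and 7802754 in KO NPC and 7942644 and 5996677 in WT NPC. Relative to depth, these fragments differed less between the groups than FPKM did. The size of the change thus rests on FPKM as listed, and the reason for the gap was not tested. Its paralog Rbbp4 had 92.4 and 88.1 FPKM in KO NPC and 87.7 and 83.8 in WT NPC, a change that did not pass. Rbbp7 therefore took 60.4% and 59.6% of the summed FPKM of both in KO NPC, against 50.4% and 52.7% in WT NPC.

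Kdm2b, whose CXXC domain binds unmethylated CpG, had 17.9 and 17.1 FPKM in KO NPC and 23.2 and 26.4 in WT NPC. The KO libraries lay below the WT libraries, with a log2 change of -0.48 ± 0.08 (adjusted p = 0.00616). Rbbp7 and Kdm2b were the calls that held in all 17 alternative settings. Suz12 (42.6 and 41.4 FPKM in KO NPC, 32.8 and 28.7 in WT NPC) rose by 0.44 ± 0.10 on the log2 scale (adjusted p = 0.0145), with no overlap between the groups. The PRC2 enzymes moved in opposite directions. Ezh1 had 4.94 and 5.51 FPKM in KO NPC and 3.53 and 3.81 in WT NPC, a log2 change of 0.41 ± 0.12 (adjusted p = 0.0431). Ezh2 had 81.2 and 85.1 FPKM in KO NPC and 98.8 and 95.5 in WT NPC, a log2 change of -0.22 ± 0.06 (adjusted p = 0.0402). Both KO libraries were above WT for Ezh1 and below WT for Ezh2. Eed was at 23.7 and 22.7 FPKM in KO NPC and 23.1 and 23.7 in WT NPC, overlapping levels with a log2 change of -0.01 ± 0.07 (adjusted p = 0.934).

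In canonical PRC1, Cbx2 was higher and Cbx7 lower in KO NPC. Cbx2 had 30.3 and 32.7 FPKM in KO NPC and 25.5 and 22.9 in WT NPC, a log2 change of 0.37 ± 0.10 (adjusted p = 0.0337). Cbx7 had 1.09 and 0.689 FPKM in KO NPC and 1.61 and 1.88 in WT NPC, a log2 change of -0.55 ± 0.12 (adjusted p = 0.0168) at 23 to 53 fragments per library. In neither gene did the KO and WT libraries overlap. E2f6, the DNA-binding subunit of PRC1.6, had 23.3 and 19.1 FPKM in KO NPC and 15.3 and 16.2 in WT NPC, a log2 change of 0.40 ± 0.12 (adjusted p = 0.0496). Scmh1 changed on the log2 scale by -0.64 ± 0.23, more in size than any called gene, and did not pass (adjusted p = 0.0828), although its KO NPC libraries (11.1 and 10.6 FPKM) were below its WT NPC libraries (17.2 and 17.6). It passed when KO NPC and WT NPC alone were fitted (adjusted p = 0.0163), without KO ESC replicate 1 (0.0138), without KO ESC replicate 2 (0.0132) and under quantile normalization (0.0367), over a range of 0.0132 to 0.243. Scmh1 was added to these refits after its values were seen. Bcor (0.44 ± 0.14, adjusted p = 0.0566) and Usp16 (0.27 ± 0.09, adjusted p = 0.0566) lay just outside the threshold, and are named after their values were seen.

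The other 6 calls were lost in at least 1 alternative setting: Suz12 in 3 of 17, Cbx7 in 4, Cbx2 in 8, Ezh1 in 10, Ezh2 in 11 and E2f6 in 15. The count of 8 became 3 without KO NPC replicate 1, 3 without KO NPC replicate 2, 2 without WT NPC replicate 2 and 5 without WT ESC replicate 1.

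Markers of several cell types moved with this comparison. Neural progenitor markers fell in 9 of 10 cases and neuronal markers in 10 of 10, with the neuronal list summing to 18.0 to 28.3 FPKM in KO NPC and 499 to 517 in WT NPC. Blood and endothelial markers rose in 8 of 8 tested, summing to 858 to 1055 FPKM in KO NPC and 90.6 to 119.7 in WT NPC, where Gata1 was listed at 0. Mesoderm and heart muscle markers rose in 6 of 7 tested, summing to 115.9 to 139.8 FPKM in KO NPC and 19.8 to 22.0 in WT NPC, where Myl7 was listed at 0. Of the 9 markers in each of these lists, 8 and 7 had FPKM of at least 1 in both KO NPC libraries. In both WT NPC libraries 6 and 5 did. Some may therefore have entered the test only through KO NPC, where they were high. Endoderm markers rose in 3 and fell in 1 of 5 tested, summing to 47.5 to 57.1 FPKM in KO NPC and 13.9 to 18.4 in WT NPC. Markers of proliferating cells rose in 13 of 16 cases, summing to 1504 to 1523 FPKM in KO NPC and 1211 to 1217 in WT NPC. The list named for feeder fibroblasts fell in 5 of 7 cases, summing to 65.8 to 76.0 FPKM in KO NPC and 89.2 to 100.5 in WT NPC. Its sums were 0.881 to 0.946 in KO ESC and 1.176 to 1.435 in WT ESC, so it does not identify feeder cells in NPC. Glial markers, with 0 of 3 tested changed, summed to 4.72 to 5.04 FPKM in KO NPC and 4.87 to 5.28 in WT NPC. The part of these differences in the Polycomb changes was not tested.

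**Figure D4:**
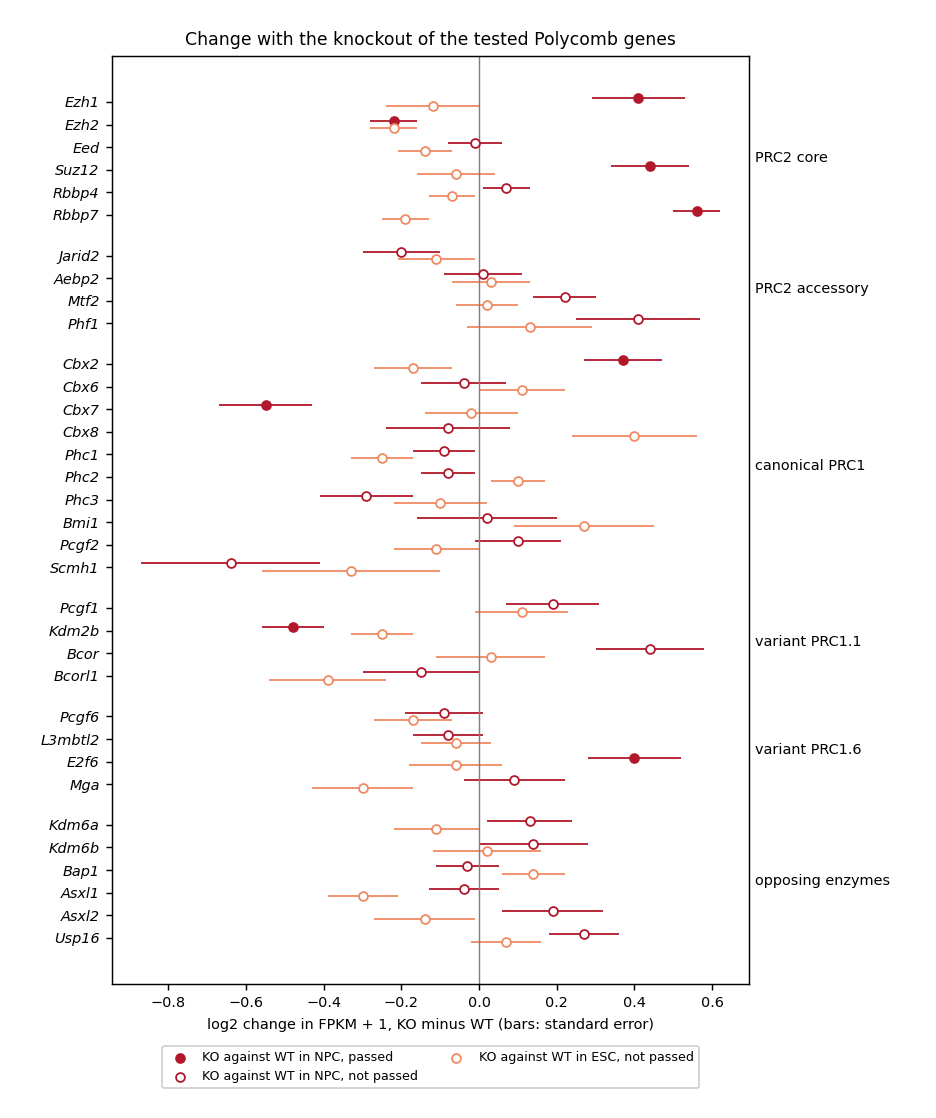
Change with the knockout of the 34 tested Polycomb genes. Points give the log2 change in FPKM + 1 of KO minus WT and bars its standard error, in NPC and in ESC, with filled points for adjusted p under 0.05. The 8 filled points are all in NPC, with Rbbp7 farthest right at 0.56 and Cbx7 farthest left among them at -0.55.

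In ESC, no Polycomb gene passed the test between KO and WT. The count of 0 of 34 stands beside 0.248% of all genes, or 33 genes, in limma. An unadjusted p under 0.05 was found for 7 of the 34 genes and 1686 of all 13318. Changes lay between -0.39 (Bcorl1) and 0.40 (Cbx8), with a median of -0.09 over the 34 genes and -0.01 over all. Ezh2, at 73.7 and 70.6 FPKM in KO ESC and 87.1 and 81.7 in WT ESC, had the smallest adjusted p, 0.249, with a log2 change of -0.22 ± 0.06. Its KO libraries lay below its WT libraries. Eed changed on the log2 scale by -0.14 ± 0.07 (adjusted p = 0.437), Suz12 by -0.06 ± 0.10 (adjusted p = 0.874) and Ezh1 by -0.12 ± 0.12 (adjusted p = 0.747). The KO and WT libraries overlapped for Suz12 and Ezh1 and did not for Eed. Libraries were apart for 4 higher and 13 lower of the 34 genes, and for 2600 higher and 3291 lower of all 13318 tested genes (44.2%). Cbx8 had 8 and 8 fragments in KO ESC and 2 and 3 in WT ESC, so its change of 0.40 rests on few reads.

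The knockout effect differed between stages most for Rbbp7. The effect in NPC minus that in ESC was 0.76 ± 0.09 (adjusted p = 0.00214), from levels of 140.8 and 130.2 FPKM in KO NPC, 89.2 and 93.5 in WT NPC, 114.9 and 116.8 in KO ESC and 132.6 and 132.7 in WT ESC. The KO libraries were the higher in NPC and the lower in ESC. Cbx2 differed by 0.54 ± 0.14 (adjusted p = 0.0422) and Suz12 by 0.50 ± 0.14 (adjusted p = 0.0481). These 3 of 34 genes (8.82%), all higher, compare with 16.8% of all genes (8.41% higher and 8.39% lower). Rbbp7 passed in all 16 alternative settings, Suz12 in 4 and Cbx2 in 2. The count was 1 without KO NPC replicate 2, WT NPC replicate 2, KO ESC replicate 2, WT ESC replicate 1 or WT ESC replicate 2, Rbbp7 being the gene that stayed. The differences for Ezh1 (0.53 ± 0.17, adjusted p = 0.0812), Eed (0.13 ± 0.09, adjusted p = 0.389) and Ezh2 (0.00 ± 0.09, adjusted p = 0.993) did not pass.

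Related genes in 3 lists were set beside these subunits. Of 13 genes for the PRC1 core and the PRC1-AUTS2 complex, 1 was higher and 3 lower in KO NPC than in WT NPC. Rybp, which binds RING1 proteins in variant PRC1, rose by 0.72, and Auts2, the subunit that names the complex, fell by 0.77 on the log2 scale, as did Fbrsl1, its paralog (-0.53), and the E3 ligase gene Ring1 (-0.39). In each genotype 6 of the 13 were higher and 3 lower in NPC than in ESC, and none passed between KO and WT ESC. The stage difference of the knockout effect passed for Rybp (0.77) and Auts2 (-0.90). The 4 calls between KO NPC and WT NPC became 2 without KO NPC replicate 1, KO NPC replicate 2 or WT NPC replicate 2.

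Of 24 other Polycomb-associated genes, 22 were tested. In KO NPC against WT NPC, 2 were higher, the Scm homolog Scml2 (0.81) and the PR-DUB cofactor Mbd6 (0.42), and 3 lower. Scml2 had mean levels of 1.80 FPKM in KO NPC, 0.607 in WT NPC, 0.510 in KO ESC and 0.630 in WT ESC, so it entered the test only through KO NPC, the group where it is high. The 3 were Dcaf7 itself, E130012A19Rik (Epop, an elongin-binding PRC2 partner, -1.08) and the deacetylase gene Hdac2 (-0.38). In ESC Dcaf7 alone passed. Between stages 11 were higher and 7 lower in KO cells, and 10 higher and 8 lower in WT cells, where E130012A19Rik (-4.23), the WD40 scaffold gene Wdr5 (-1.92) and the deubiquitinase gene Usp7 (-1.36) changed most. The stage difference of the knockout effect passed for Scml2 (0.92), whose difference rests on the same group. That count was 0 with an FPKM minimum of 5 and without KO ESC replicate 2, WT ESC replicate 1 or WT ESC replicate 2, and 2 without KO ESC replicate 1, WT NPC replicate 1 or WT NPC replicate 2.

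The Trithorax list held 23 genes for H3K4 methyltransferase complexes, whose mark is known to oppose Polycomb silencing, and for H3K4 demethylases. In KO NPC against WT NPC, 2 were higher, the methyltransferase gene Setd1a (0.40) and the demethylase gene Kdm5b (0.30), and 2 lower, the demethylase gene Kdm1a (-0.40) and the chromatin reader gene Psip1 (-0.29). None passed in ESC. Between stages 9 were higher and 5 lower in KO cells, and 8 higher and 10 lower in WT cells, where Kmt2e (2.00) and the shared subunits Dpy30 (-1.63) and Ash2l (-1.53) changed most. The stage difference of the knockout effect passed for Setd1a (0.59), Kdm5b (0.57) and Kmt2b (0.52). These 3 calls became 1 without either KO NPC library, either WT ESC library, WT NPC replicate 2 or KO ESC replicate 2, and the 4 between KO NPC and WT NPC became 1 without either KO NPC library or WT NPC replicate 2 and 2 without WT NPC replicate 1.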

How the data were processed

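Poly(A) RNA of 8 libraries was measured, 2 in each of 4 groups taken from the sample titles. Per the submitters' processing notes, TopHat2 2.1.1 and Cufflinks 2.2.1 were used with mm9. The deposited tables give FPKM per gene, made by the authors, with its confidence interval and no counts. Fragment numbers were inferred from that interval, taken as counting error only. For genes under 5 fragments without several transcription starts listed, 62.2% to 66.4% per library came within 0.05 of a whole number. Genes with several starts were not checked in this way.

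Entries of the same symbol were summed, 12 symbols with a failed estimate were dropped, and 13318 genes that reached an FPKM of 1 in 2 or more libraries were tested as log2(FPKM + 1), which understates the change of low genes. limma 3.58.1 in R 4.3.3 fitted 4 group means, leaving 4 residual degrees of freedom, with a variance trend. Its tests were two-sided, Benjamini-Hochberg adjusted, and checked on simulated data. Table starts count from 0 and were printed plus 1.

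Members and lists were chosen with earlier results of these data known. Full statistics are given for all called members between KO and WT (Ezh1, Ezh2, Eed and Suz12 always) and the 10 largest changes between stages, and other members more briefly. Related lists give the 3 largest besides Dcaf7, with Ring1, Psip1 and Hdac2 added after their values were seen. Some related genes are not reported here. Alternatives were the pseudocount, the filter, scaling, duplicate entries, the variance model, left-out libraries, a replicate block and fits of 2 groups. The labels name no shared batch and do not say whether replicate numbers pair libraries. Same-numbered deviations correlated at -0.054 to 0.179, which does not settle it, and the main fit used no pairing.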

Additional observations from a re-analysis of the deposited data

Results flagged for a closer look

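For 3 Polycomb genes the effect of the knockout in NPC differed from its effect in ESC in a test of the difference itself, which limma made on log2(FPKM + 1) and adjusted over all 13318 genes. The effect in NPC minus that in ESC was 0.76 for Rbbp7 (adjusted p = 0.00214), where both KO libraries were above the WT libraries in NPC and below them in ESC. It was 0.54 for Cbx2 (adjusted p = 0.0422), with the same order of libraries. For Suz12 it was 0.50 (adjusted p = 0.0481), with the KO libraries above WT in NPC and overlapping WT in ESC. The neural, blood, mesoderm and proliferation markers that moved with the knockout in NPC moved beside these genes, and their part was not tested.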

How the results depend on the processing

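The 34 genes were called between KO NPC and WT NPC 8 times, and 5 times under median-ratio scaling, 5 with the replicate block, 5 in a fit of KO NPC and WT NPC alone and 2 to 7 with 1 library left out. For the difference of the knockout effects, 3 calls became 1 with a pseudocount of 0.1, 1 without a filter, 1 under median-ratio scaling, 1 under quantile normalization, 1 without the variance trend and 1 to 2 with 1 library left out. The count between KO ESC and WT ESC was 0 in all settings, and the counts between stages lay within 1.5 times. The block changed no other count by over 1.5 times. The median log2 change of the genes between KO NPC and WT NPC was 0.02, and 0.07 with an FPKM minimum of 5 and -0.06 under median-ratio scaling. Between KO NPC and KO ESC it was 0.03, and -0.05 with the FPKM minimum of 5, -0.05 under median-ratio scaling and -0.11 under quantile normalization. For the difference it was 0.14, and 0.06 and 0.07 under these scalings. Signs turned for changes near 0. The Ezh2 difference became -0.08 under median-ratio scaling, -0.09 under quantile normalization and as low as -0.04 with 1 library left out (-0.02, -0.03). Quantile normalization gave 0.12 for Rbbp4 in WT cells and -0.29 for Ezh1 in KO cells between stages. With 1 library left out, the lowest and highest values and those of turned sign were 0.01 and 0.02 at the top for Eed in NPC, -0.02 and 0.20 for Ezh1 between stages in KO cells, -0.15 with 0.01 and 0.03 for E2f6, -0.17 and 0.05 for Suz12 and -0.71 and 0.04 for Scmh1 in ESC, and -0.68 and 0.07 for the Scmh1 difference. For single genes, 1203 values kept sign and side of the threshold, 103 lost the call, 5 gained it and 16 turned sign. The related lists were put through these settings after their values were seen. The cause was not tested. With 2 libraries a group and few fragments for Cbx8 and Phf19, small changes in these genes were not detectable at this depth.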
